A study of Bos taurus with 11 samples.

Results

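The genes of the cytosolic ribosome were followed across 4 histone marks and CTCF in rumen epithelial primary cells (REPC) of cattle. Members were the symbols in the interval table that begin with RPL or RPS and a digit, with RPLP0, RPLP1, RPLP2 and RPSA. The prefix matched 94 symbols, of which 16 were left out: the ribosomal protein S6 kinases, the RP-like paralogs RPL22L1, RPL26L1, RPL36AL, RPL7L1 and RPS27L, and RPS19BP1, which binds RPS19 and is not a ribosomal protein. This left 78 genes of 25197 listed symbols, 46 of the large (60S) and 32 of the small (40S) subunit. A gene start could be placed for 77 of them, out of 23988 starts in all, and RPL36A had none because its symbol was listed on chromosomes 15 and X. The genes were chosen by symbol and not by their values, though with earlier results of these data known.

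Ribosomal proteins and ribosomal RNA together build the particle that makes all cytosolic proteins. Their genes are spread over the genome, are active in nearly every cell, and in vertebrates have short promoters in CpG islands and messages that start with a pyrimidine tract (5′ TOP messages), through which growth signals set their translation. Acetylation of H3K27 and trimethylation of H3K4 mark active promoters, monomethylation of H3K4 marks enhancers and the flanks of promoters, trimethylation of H3K27 is the mark of Polycomb repression, and CTCF is a zinc finger protein bound at domain boundaries and at many promoters.

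The cells were a primary culture from the rumen of 1 Holstein bull calf, aged 2 weeks and given only milk replacer. The control was untreated cells and the treated cells received 5 mM butyrate for 24 h. Butyrate is a fermentation acid of the rumen and an inhibitor of histone deacetylases. For each of the 5 targets there was 1 control and 1 butyrate library, beside 1 input library.

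With 1 library per group, from 1 animal, there is no replicate error, no test between conditions was possible, and every difference is one between a pair of libraries. In bulk chromatin, fewer cells carrying a mark and less of the mark per cell cannot be told apart. The 10 ChIP libraries held 371758 intervals, from 26824 for H3K27me3 in the control to 54071 for H3K4me1 in the control. H3K27ac had 38148 intervals in the control and 48701 after butyrate, while H3K4me1 had 54071 and 47404. Of 12 markers of basal and stratified epithelium, 5 carried H3K4me3 at the start in the control (among them KRT5, ITGA6, ITGB4 and PKP1) and 10 after butyrate, with no H3K4me3 at TP63 or CDH1 in either library. Of 7 fibroblast markers 5 carried it in the control, among them COL1A1, COL1A2 and COL3A1, and 4 after butyrate. Of 4 smooth muscle markers 2 carried it in the control and 4 after butyrate, where MYH11 and DES had gained it, and 1 of 4 for endothelium and 1 of 4 immune markers did in both libraries. Over all gene starts 56.5% carried H3K4me3 in the control and 61.6% after butyrate. In the control the epithelial markers (41.7%) were below that share and the fibroblast markers (71.4%) above it. These counts therefore do not settle the cell type. The part of other cell types in the values below was not tested.

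A window of 2 kb upstream and 2 kb downstream of the start was taken as the promoter, and it counted as marked when a called interval of that library reached it. Its signal is the average signal of the highest such interval, in the deposited units. Chromosomes and starts are those of the cattle build UMD3.1. The members lay on 28 chromosomes, with 9 on chromosome 18, and no interval was shared between members. The closest neighbours were RPL3L and RPS2, 7291 bp apart on chromosome 25. For 20 members another gene began on the opposite strand within 2 kb, and for 15 of them within 500 bp, as at RPL12 and LRSAM1 (43 bp), RPL28 and TMEM238 (74 bp) or RPS25 and TRAPPC4 (107 bp). At these 15 the signal cannot be assigned to one gene of the pair. On the same strand, LOC785516 began 673 bp from RPS27 and LOC104974959 742 bp from RPS9. In all, 22 members had another gene start within 2 kb.

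In the control, nearly all ribosomal protein promoters carried the marks of active promoters. H3K27ac reached 75 of 77 (97.4%, exact Clopper-Pearson 95% interval 90.9 to 99.7, covering counting error only) against 47.1% of all gene starts. H3K4me3 also reached 75 of 77, against 56.5% of all starts. H3K4me1 reached 47 (61.0%, 49.2 to 72.0, against 30.6%) and CTCF 43 (55.8%, 44.1 to 67.2, against 24.6%). H3K27me3 reached 13 (16.9%, 9.31 to 27.1), below the 32.9% of all starts. The most frequent set was H3K27ac, H3K4me3, H3K4me1 and CTCF together, at 20 promoters (26.0%, against 7.18% of all starts). The same set without CTCF was at 19 (24.7%, against 9.88%). H3K27ac, H3K4me3 and CTCF without H3K4me1 were at 15 (19.5%, against 8.37%).

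After butyrate, the same promoters still carried H3K27ac and H3K4me3, while H3K4me1 was called at few of them. H3K27ac reached 71 (92.2%, 83.8 to 97.1, against 34.7% of all starts), H3K4me3 74 (96.1%, against 61.6%) and CTCF 41 (53.2%, 41.5 to 64.7, against 26.7%). H3K4me1 reached 5 (6.49%, 2.14 to 14.5, against 18.1%) and H3K27me3 3 (3.90%, 0.811 to 11.0, against 29.2%). The most frequent sets were now H3K27ac, H3K4me3 and CTCF at 35 promoters (45.5%, against 10.1% of all starts) and H3K27ac with H3K4me3 alone at 30 (39.0%, against 14.9%). By subunit, H3K4me1 reached 28 of 45 promoters of 60S genes in the control and 3 after butyrate, and of 32 promoters of 40S genes it reached 19 and 2. H3K27me3 reached 5 of the 60S promoters in the control (interval 3.71 to 24.1%) and 8 of the 40S promoters (11.5 to 43.4%), with intervals that overlap.

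**Figure D1:**
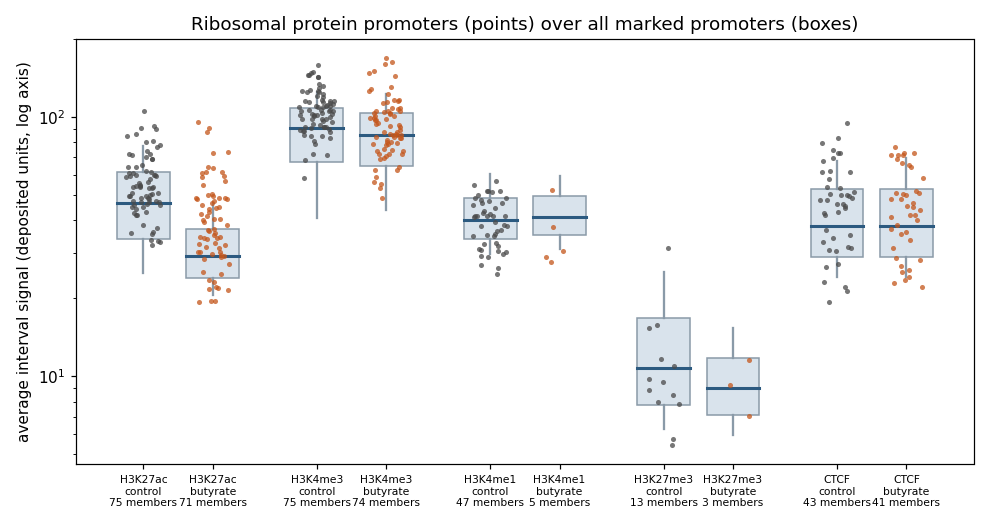
Average interval signal on a log axis at the ribosomal protein promoters (points, 1 per marked member) for each target and condition. Boxes show the quartiles, median and 10 to 90% range of all marked promoters: the 71 H3K27ac values after butyrate have a median of 38.5 against 29.1 over all promoters, and only 5 H3K4me1 values remain.

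H3K27ac at most of these promoters had a lower deposited signal after butyrate, by less than at the typical promoter, and relative to that typical promoter it was higher. Its median signal was 53.8 in the control and 38.5 after butyrate, where all marked promoters had 46.6 and 29.1. For the 71 members with intervals in both libraries, the log2 of butyrate signal over control signal had a median of -0.49 (quartiles -0.83 and -0.27) on the deposited scale. It was 0.29 once the median of all promoters, -0.78, is taken as 0, so the direction depends on how the libraries are scaled. The ratio was below 0 at 60 of 71 (84.5%, against 90.8% of all promoters, which for ratios are those marked in both libraries), and at 20 of 71 it was below the median promoter, where 50.0% of all promoters lie. At least 2-fold lower were 9 members (12.7%, against 33.7%), and none was 2-fold higher (against 0.191%). From the peak signal in place of the average the median was -0.85 (-1.29 over all promoters) and 27 members were at least 2-fold lower (against 64.7%). In the control, 21 of 75 members (28.0%) were above the upper quartile of all marked promoters, and after butyrate 37 of 71 (52.1%).

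The members with the highest H3K27ac ratios were all proteins of the 60S subunit. RPL7A (chromosome 11, start at 104311808) had 61.4 in the control and 90.7 after butyrate, a log2 ratio of 0.56, and shares its promoter with MED22, which starts 116 bp away on the other strand. RPL10A, the protein of the mobile L1 stalk at the exit side of the ribosome (chromosome 23, start at 9391538), had 45.9 and 64.5, a ratio of 0.49. RPL15 (chromosome 27, start at 41934590) had 45.1 and 61.4, a ratio of 0.44, with NKIRAS1 starting 159 bp away on the other strand. All 3 were higher on the deposited scale and also relative to the median promoter, at 1.34, 1.27 and 1.22. RPL8, which lies close to the peptidyl transferase centre, had 42.8 and 50.2, a ratio of 0.23. These ratios compare averages over unlike lengths. At RPL7A the butyrate interval (104311624 to 104312892) lay inside a longer control interval (104310614 to 104313401). The same held at RPL8 (1506385 to 1507754 inside 1505784 to 1508236) and, with less difference, at RPL15. Whether acetylation was higher at any one place was not tested. In all, 11 of 71 members had a ratio above 0, 8 of 42 of the 60S and 3 of 29 of the 40S subunit.

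At the other end stood mostly proteins of the 40S subunit. RPS27, a zinc finger protein of the small subunit (chromosome 3, start at 16507247), had 53.3 in the control and 19.6 after butyrate, a log2 ratio of -1.45. RPS9, near the entry of the message (chromosome 18, start at 63388728), had 53.6 and 21.6, a ratio of -1.31. RPS23, a protein of the decoding centre (chromosome 7, start at 84525639), had 74.2 and 31.5, a ratio of -1.23. These 3 stayed lower relative to the median promoter, at -0.67, -0.53 and -0.46. At RPS27 and RPS9 the ratio sets a short butyrate interval against a longer control interval that holds it. The control intervals, 16506245 to 16507328 and 63387803 to 63389621, covered the start. Those after butyrate, 16506911 to 16507114 and 63387909 to 63388144, did not reach it. The lowest ratio of all, -1.81 at RPL19 (106 and 30.1), sets different places against each other: the control interval had its summit at -2477 bp and covered 63 bp of the window, and the butyrate interval had its summit at -13 bp.

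By subunit, the median log2 ratio of H3K27ac was -0.46 over 42 members of the 60S (95% binomial interval of the median -0.59 to -0.31) and -0.59 over 29 of the 40S (-0.90 to -0.30), and these intervals overlap. Of the 9 members at least 2-fold lower, 3 were of the 60S and 6 of the 40S. The acidic stalk proteins RPLP0, RPLP1 and RPLP2, which bring the GTPase factors of translation to the ribosome, were close to the median promoter. RPLP1 had 57.6 and 32.4 (-0.83), and RPLP2 60.1 and 35.2 (-0.77). RPLP0 had 53.2 and 29.8 (-0.83), but from intervals that do not overlap, with summits at -371 bp in the control and +1501 bp after butyrate. The highest interval of the control and that of butyrate did not overlap at 5 of the 71 members in all. RPSA, the laminin receptor precursor and a protein of the 40S subunit, had 64.1 and 34.3 (-0.90).

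**Figure D2:**
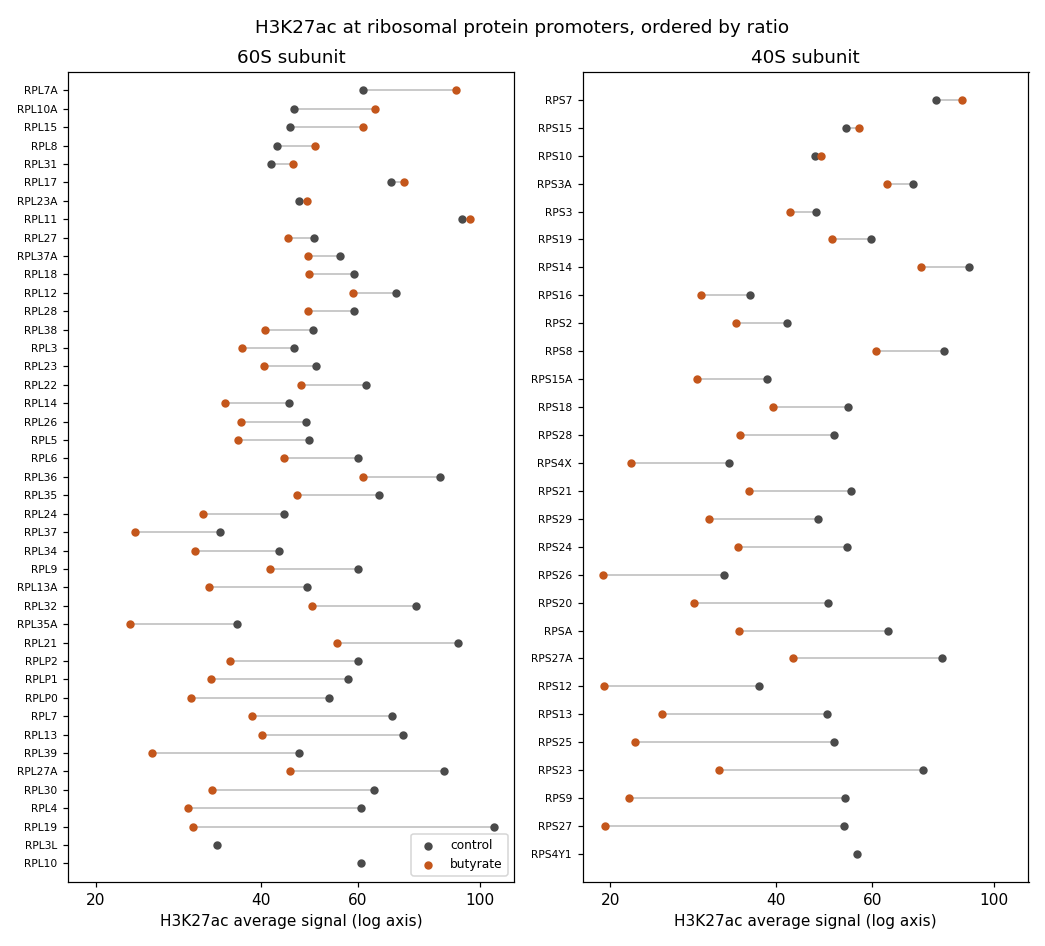
H3K27ac average signal on a log axis in the control (dark) and after butyrate (orange) at promoters marked in the control, by subunit and ordered by ratio from RPL7A (61.4 to 90.7) down. Of all 71 promoters marked in both libraries the deposited signal was lower at 60, while relative to the median promoter 20 were lower, and RPL10, RPL3L and RPS4Y1 have a control point only (4 members are not drawn).

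In the control the highest H3K27ac signals were 106 at the interval upstream of RPL19, 92.7 at RPL11 and 91.2 at RPL21. RPL11, a partner of the 5S RNA and known in human cells to bind MDM2, was the highest member after butyrate at 96.0 (log2 ratio 0.05), whereas RPL21 had 54.9 (-0.73). The lowest control signals were 32.2 at RPS26, at the exit of the message, 32.9 at RPS4X and 33.3 at RPL3L, and after butyrate RPS26 had 19.4 and RPS4X 21.8.

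H3K27ac was called in the control only at 4 of the 75 members (5.33%, 1.47 to 13.1), against 30.4% of all promoters marked in the control, and at neither of the 2 members without it in the control did it appear after butyrate (against 3.62% of all promoters without it). RPL10, a late-joining protein of the 60S subunit on chromosome X, had a signal of 60.7 in the control from an interval of 2026 bp. That was higher than the 53.8 of the median member, while weaker control intervals in the window had 16.4 and 14.1. RPL10 had no H3K27ac interval after butyrate. RPS4Y1 had 56.3, with the control summit within 200 bp of the start. In human RPS4Y1 is the Y-linked copy of RPS4X, but here the symbol was listed on chromosome 23. The value at RPL3L was the edge of an upstream interval that covered 13 bp of the window.

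H3K27ac intervals covered less of the window after butyrate, on the upstream side of the start in particular. The median length covered in the window was 1943 bp in the control and 1339 bp after butyrate over the 71 members marked in both, and it was smaller after butyrate at 60 (84.5%). Over all promoters the medians were 1794 and 782 bp and the share was 90.9%. The start itself lay inside an H3K27ac interval at 72 of 77 members in the control and at 43 after butyrate, or 93.5% and 55.8%. Over all starts the shares were 33.3% and 12.2%, over 77 mitochondrial ribosomal protein genes 84.4% and 19.5%, and over 38 proteasome genes 86.8% and 34.2%.

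The profile around the start shows where coverage differed. At 475 bp upstream H3K27ac covered 55.8% of the member promoters in the control and 11.7% after butyrate. At 225 bp downstream it still covered 93.5% and 83.1%, and at 525 bp downstream 92.2% and 72.7%. Further into the gene, at 2025 bp, the order turned, with 13.0% in the control and 29.9% after butyrate. At the same places over all starts with H3K4me3 in the control the shares were 41.1% and 12.3% (475 bp upstream), 64.8% and 34.3% (225 bp downstream) and 11.2% and 9.02% (2025 bp). The summit lay downstream of the start at 56 of 75 members in the control (74.7%, against 67.3% of all marked promoters). After butyrate it did at 63 of 71 (88.7%, against 70.8%), and the medians were +207 and +240 bp.

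**Figure D3:**
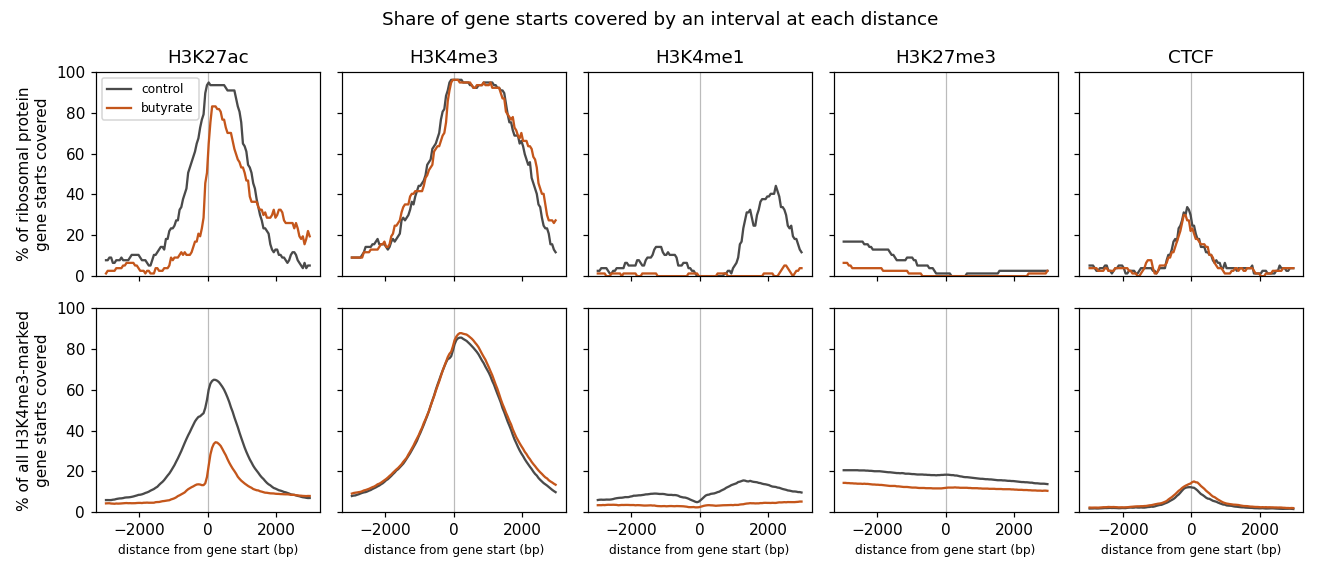
Percent of gene starts covered by an interval (y axis) against distance from the start in bp (x axis), for 77 ribosomal protein starts (top) and 13563 starts with H3K4me3 in the control (bottom), in control (dark) and butyrate (orange). Upstream of the start H3K27ac covers 55.8% and then 11.7% of the members at 475 bp, H3K4me3 is close in both libraries, and the H3K4me1 shoulder downstream is 44.2% in the control and 0% after butyrate at 2225 bp.

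H3K4me3 stayed in place and was slightly lower at most members. The median signal was 106 in the control and 90.7 after butyrate, against 90.7 and 85.5 over all marked promoters. The median log2 ratio was -0.19 (quartiles -0.35 and -0.07) over 74 members, where all promoters had -0.01. The ratio was below 0 at 62 members (83.8%, against 51.6% of all promoters). Lower ratios were not particular to the members. Medians were -0.20 for proteasome genes, -0.19 for ribosome assembly, -0.15 for initiation factors and for other 5′ TOP genes. Mitochondrial ribosomal proteins had -0.14 and elongation factors -0.07. In these lists the share below 0 ran from 67.6% (initiation factors) to 84.7% (ribosome assembly). None of the 74 was 2-fold lower (against 0.0962%) or 2-fold higher (against 3.94%). The intervals were wide, with a median length of 2961 bp in the control and 2996 bp after butyrate against 2016 and 1899 bp over all. They covered the start at 74 of 77 members in both libraries (96.1%, against 45.7% and 49.0% of all starts). The summit lay downstream at 69 of 75 members in the control (92.0%, against 73.5% over all), at a median of +231 bp, and 71 of the 75 intervals (94.7%) touched a CpG island in the deposited annotation, against 92.2% over all.

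The lowest ratio of H3K4me3 was that of RPL35A, in human a gene of Diamond-Blackfan anaemia (chromosome 1, start at 70792140), with 91.8 in the control and 55.5 after butyrate, a log2 ratio of -0.73. RPS27 had 103 and 69.1 (-0.57) and RPL9 109.5 and 74.1 (-0.56). RPS27 was thus among the 4 lowest for both marks. The highest ratio, 0.50 at RPL7 (107 and 151), came from intervals that do not overlap, since the interval at the start itself had 107 and 95.7 and the value of 151 belonged to one with its summit at -1352 bp, where RDH10 begins 1053 bp from RPL7 on the other strand. RPS15, a decoding centre protein, had 134 and 161 (0.26), RPS21 143 and 169 (0.23), and RPS27A, which is made as a fusion with ubiquitin, 91.5 and 104 (0.19).

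The control signal of H3K4me3 ranged from 58.4 to 159. The highest values were 159 at RPL13 (148 after butyrate), 149.8 at RPS7 (144) and 148 at RPL11 (163). The 3 lowest were all on chromosome X, with 58.4 at RPS4X (48.8 after butyrate), 68.5 at RPL10 (56.5) and 71.8 at RPL39 (53.5). RPL39 lines the exit tunnel of the nascent chain.

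RPL36A, the member without a placed start, was also on X by one of its listings, with H3K4me3 of 63.0 in the control at +196 bp and 38.9 after butyrate at +180 bp, and H3K27ac of 29.8 and 24.1. Over all marked promoters the control median of H3K4me3 was 62.5 on X (444 promoters) and 91.7 on the autosomes (13119), and that of H3K27ac 34.0 and 46.9, in cells of a male calf.

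Member by member, the ratios of H3K27ac and H3K4me3 had little relation to each other. Both ratios were below 0 at 52 of 71 members and above 0 at 4, H3K27ac alone was below 0 at 8 and H3K4me3 alone at 7. Pearson's r over the 71 members was 0.09 and Spearman's rho 0.10, given as a description over genes that share the same 4 libraries. The 15 members with an opposite start within 500 bp had a median H3K27ac ratio of -0.53 and the 56 others marked in both libraries -0.48.

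**Figure D4:**
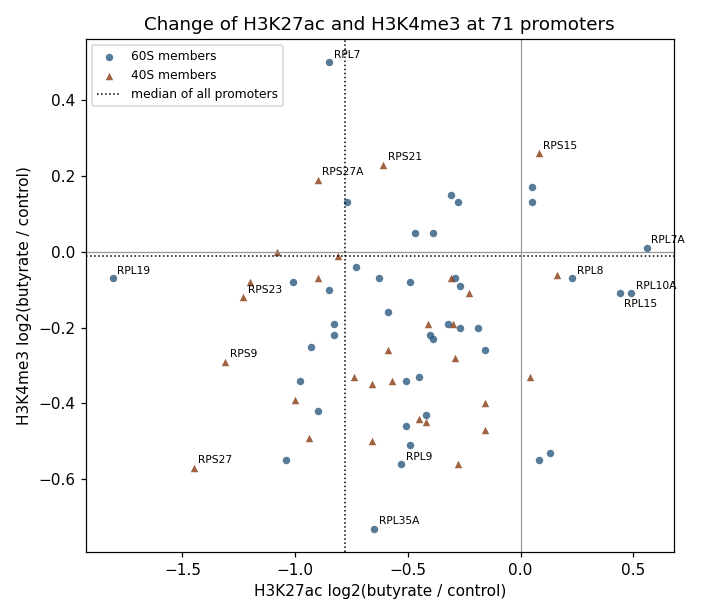
Log2 ratio of butyrate over control of H3K4me3 (y axis) against that of H3K27ac (x axis) for the 71 promoters with both, by subunit, with dotted lines at the medians of all promoters (-0.78 and -0.01). On the deposited scale 52 points are below 0 on both axes, while only 20 are below the median promoter of H3K27ac.

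H3K4me1 was no longer called at nearly every member that had it. Of the 47 members marked in the control 43 were not marked after butyrate (91.5%, 79.6 to 97.6), against 55.8% of all promoters marked in the control and 63.0% of those at starts with H3K4me3. The 47 control values had a median of 41.4, and all marked promoters one of 40.2. Among the compared genes, 14 of 14 initiation factor, 22 of 25 ribosome assembly (88.0%) and 13 of 15 proteasome promoters (86.7%) had it in the control only too. So did 5 of 7 promoters of other 5′ TOP genes (71.4%), 19 of 28 of mitochondrial ribosomal proteins (67.9%) and 2 of 4 of elongation factors (50.0%). It reached 4 of 11 elongation factors in the control and 4 after butyrate (36.4% in each, against 30.6% and 18.1% of all starts).

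H3K4me1 sat on the flanks of the active promoter. Of the 74 control intervals in the windows 53 had their summit downstream of the start, at a median of +1801 bp, and 21 upstream, at a median of -1155 bp. None covered a start, whereas the start was covered at 15.7% of all promoters marked in the control. The share of members covered was 39.0% at 2025 bp downstream and 44.2% at 2225 bp in the control, and 1.30% and 0% after butyrate. Over all starts with H3K4me3 the shares at 2225 bp were 12.4% and 4.58%. With the window set to 5 kb the members with H3K4me1 were 55 in the control and 22 after butyrate (39.4% and 27.6% of all starts), so intervals remained farther out. The members marked only in the control ranged from 24.9 at RPSA to 56.8 at RPLP2.

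H3K4me1 was called in both libraries at 4 members, and after butyrate only at RPL3L, where 6.62% of all promoters without it in the control had it after butyrate. RPLP0 had 46.0 in the control and 28.9 after butyrate (log2 ratio -0.67). RPS4Y1 had 42.7 and 27.7 (-0.63), from intervals that do not overlap, with summits at -799 and -1327 bp, and the control interval with its summit at -1215 bp had 36.9. RPL36 had 51.8 and 52.6 (0.02), but the control summit lay at +1842 bp and the butyrate summit at -2062 bp, and these too are different places. Over all 4 the median was -0.62, against -0.13 over all promoters with H3K4me1 in both, and 3 of 4 were below 0 (against 64.6%). None was 2-fold lower (against 0.956%) or 2-fold higher (against 0.123%).

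RPL3L, the copy of RPL3 made in heart and skeletal muscle, was the only member with H3K4me1 after butyrate alone, at 37.7 with a summit at +691 bp and 37.4 with one at -109 bp. It had no H3K4me3 in its window in either library, and the nearest upstream H3K4me3 summits lay at -2861 bp (111, control) and -2765 bp (106, butyrate). It is the one member known for a restricted tissue pattern. It was the only one of the 77 with H3K4me1 and no other target after butyrate (1.30%, near the 1.85% of all starts). RPL3 itself had H3K4me3 of 102 and 114 and H3K27ac of 46.0 and 37.0.

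CTCF was called at similar numbers of members in both libraries. It was called in the control only at 4 of 43 (9.30%, 2.59 to 22.1, against 12.6% of all promoters marked in the control), which were RPL24, RPL27, RPS13 and RPS19 with control signals of 21.4 to 27.2, and after butyrate only at RPL23A (36.0) and RPL7 (37.0), where 6.89% of all promoters without it in the control had it after butyrate. The median log2 ratio was -0.10 over 39 members, against 0.03 over all, and it was below 0 at 27 (69.2%, against 46.0%). None was 2-fold lower (against 0.213%) or 2-fold higher (against 0.698%).

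The CTCF summit lay just upstream of the start, at a median of -127 bp in the control. It lay downstream at 13 of 43 members (30.2%), whereas over all promoters 46.0% lay downstream. Mitochondrial ribosomal protein (30.8%, median -158 bp) and proteasome promoters (31.2%, -123 bp) had the same position. The highest signals were 95.0 at RPL38, known in mouse for its role in translation of Hox messages (64.4 after butyrate), 83.5 at RPL13A (58.5) and 79.5 at RPL5, a partner of the 5S RNA (71.3). The lowest ratios were -0.93 at RPS9 (42.1 and 22.1) and -0.63 at RPL7A (48.8 and 31.4), and the highest 0.45 at RPLP2 (36.8 and 50.2) and 0.41 at RPS7 (19.3 and 25.7). RPS9 had low ratios of both CTCF and H3K27ac, and RPL7A a low ratio of CTCF beside the highest of H3K27ac.

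H3K27me3 touched the windows of 13 members in the control, mostly as the edge of a domain outside. The start lay inside such an interval at 1 member only, RPL17, with the low signal of 5.44, whereas over all starts 26.8% did. Summits lay at a median of -3646 bp, and the median length covered in the window was 1056 bp against 4000 bp over all marked promoters. Marked promoters of mitochondrial ribosomal proteins (-2902 and 971 bp) and proteasome genes (-3390 and 1200 bp) were alike in this. Of the 13 members 10 were not marked after butyrate (76.9%, 46.2 to 95.0), against 20.6% of all promoters marked in the control and 32.4% of those at starts with H3K4me3. None was marked after butyrate only (against 4.59% of all promoters without it in the control). Control-only calls were also frequent at 8 of 14 mitochondrial ribosomal protein, 4 of 7 proteasome and 4 of 7 ribosome assembly promoters (57.1% each). The counts were 2 of 3 for initiation factors, 3 of 3 for other 5′ TOP genes and 0 of 1 for elongation factors.

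The highest H3K27me3 signal was 31.3 at RPS28, from an interval of 28399 bp with its summit 7056 bp downstream, and it had no interval in the window after butyrate. RPS19, in human a gene of Diamond-Blackfan anaemia, had 11.7 and 9.25 (log2 ratio -0.34). Of the 3 ratios 2 were below 0 (against 78.6% of all promoters), 1 was 2-fold lower (against 11.6%) and none 2-fold higher (against 0.0159%). Their median of -0.34 on the deposited scale is 0.01 relative to the median promoter of -0.35.

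For RPS6, RPL29 and RPL19 the main H3K27ac and H3K4me3 intervals of the control were centred outside the window. RPS6, the target of the ribosomal protein S6 kinases, had no mark of any target within 2 kb of its listed start on chromosome 8, in either library. Its H3K27ac (65.8 and 56.2) and H3K4me3 (146 and 123) had their summits 9541 bp downstream in both libraries, at a place listed as in the gene, while the gene is 4577 bp long in RefSeq on the newer assembly ARS-UCD2.0. RPL29 had H3K4me3 with the summit at +3190 bp in the control (98.9) and at +3254 bp after butyrate (96.9), where the gene is 2176 bp long in RefSeq, and was counted as marked in the control only through 283 bp at the edge of that interval. This was 1 of 75 members with H3K4me3 in the control only, against 0.413% of all promoters marked in the control. Of the 2 members without H3K4me3 in the control none had it after butyrate, against 12.3% of all promoters without it in the control. RPL19 had its main H3K4me3 at -2461 bp in the control (88.2) and -2413 bp after butyrate (83.8), and a weak interval at the start (24.7 and 23.0). Without RPS6, RPL29, RPL19 and RPL3L, H3K27ac marked 73 members in the control and 70 after butyrate, with a median log2 ratio of -0.48 on the deposited scale.

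Beside 6 other gene lists, a low share of the members had H3K27ac called in the control only, with an interval (1.47 to 13.1) that lies below those of ribosome assembly genes (19.3 to 41.6) and mitochondrial ribosomal proteins (28.0 to 51.2) and overlaps those of the elongation factors (0.253 to 44.5), initiation factors (4.95 to 31.1), 5′ TOP genes (3.21 to 37.9) and proteasome genes (4.67 to 29.5). H3K27ac was called in the control only at 4 of 75 members (5.33%), 1 of 10 elongation factors (10.0%), 5 of 34 initiation factors (14.7%), 3 of 20 genes of a list of other 5′ TOP messages (15.0%), 5 of 36 proteasome genes (13.9%), 21 of 71 genes of ribosome assembly and ribosomal RNA synthesis (29.6%) and 29 of 74 mitochondrial ribosomal protein genes (39.2%). The lists are not separate, since 11 of the 21 genes with a start in the 5′ TOP list are also in another one, 5 as elongation factors, 5 as initiation factors and NPM1 as an assembly gene. Mitochondrial ribosomal proteins also come from nuclear genes, and their promoters carried H3K27ac as often in the control, at 96.1%, and H3K4me3 equally often in both libraries, at 96.1%. Their control H3K27ac signal was lower, with a median of 41.4 against 53.8 for the cytosolic members. The median log2 ratios of H3K27ac were -0.49 for the members, -0.58 for elongation factors, -0.59 for mitochondrial ribosomal proteins, -0.87 for proteasome genes, -0.88 for the 5′ TOP list, -0.90 for initiation factors and -1.01 for ribosome assembly, against -0.78 over all promoters. These medians leave out promoters called in the control only.

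Single genes of these lists differed as much as the members did. EEF1A1 and EEF1D, subunits of the factor that brings transfer RNA to the ribosome, had H3K27ac of 52.7 and 61.4 (log2 ratio 0.22) and of 43.0 and 63.4 (0.56). At EEF1D the summits lay at +166 bp in the control and +3729 bp after butyrate, and a butyrate interval at +134 bp had 58.5. PABPC1, the poly(A)-binding protein with a 5′ TOP message, had 93.0 and 30.1 (-1.63), but these are different places, since at the control summit of -648 bp the butyrate interval had 17.2, and the butyrate summit lay at +504 bp, where the nearest control interval (summit at +216 bp) had 44.7. EIF3E, a subunit of the factor eIF3, had 70.2 and 17.0 (-2.04). EIF6, which keeps free 60S subunits from joining, had 86.0 and 32.4 (-1.41). Among assembly genes RIOK3 had 80.3 and 23.3 (-1.79) and BYSL 59.2 and 17.3 (-1.77). At BYSL the control interval of 2472 bp had its summit at +451 bp and the butyrate interval of 195 bp at -509 bp. MYC, a transcription factor known to act on ribosomal genes, had 51.8 and 77.1 (0.57), with both summits outside the window, at +2472 and +2504 bp. The butyrate interval covered 510 bp of the window, against 2205 bp in the control. Other butyrate intervals at MYC, with summits at +40 and +1096 bp, had 18.8 and 20.5.

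**Figure D5:**
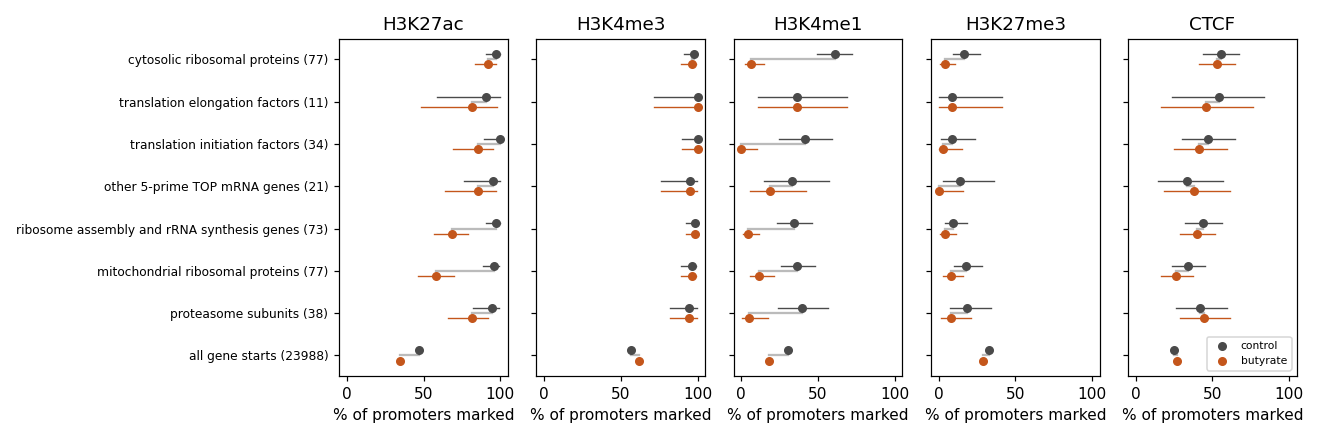
Percent of promoters marked (x axis, with exact 95% binomial intervals for counting error) in control (dark) and butyrate (orange) for each target and gene list, with the number of starts in parentheses. For H3K27ac the cytosolic ribosomal proteins go from 97.4% to 92.2% and the mitochondrial ones from 96.1% to 58.4%, and for H3K4me1 the cytosolic ones go from 61.0% to 6.49%.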

How the data were processed

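REPC chromatin of 1 calf was profiled by ChIP-seq in 11 samples. The submitters' processing notes name Trim Galore 0.4.1, BWA, MACS2 and the build UMD3.1. Per the study's methods reads that failed the quality filter of the sequencer were removed, and the rest were aligned with BWA and called with MACS2 against the input, while trimming is described there for other assays. All H3K27me3 intervals began at multiples of 200 bp, and the caller that does so is not given in the sources used here. The deposited signal values are the authors' peak and average tag densities of each called interval. How they were scaled between libraries, and whether coordinates count from 0 or 1, is not given in the sources used here. The interval table has no read totals, so depth was not used and no precision from depth is given. No column comparing the conditions was used.

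Each gene start was taken from interval summits and their listed distances, for symbols with at least 2 listings of which 90% gave 1 position and strand. A promoter was 2 kb either side and took the highest average signal of intervals reaching it. Log2 ratios used no pseudocount, for promoters marked in both libraries. Shares have exact Clopper-Pearson 95% intervals, and medians have 95% binomial intervals over genes, which are not replicates. A change of at least 2-fold was counted. No test between groups was possible. Members, gene lists and comparisons were chosen with earlier results of these data known.

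Genes named followed a rule: the highest and lowest ratios and signals per target (4 each for H3K27ac and H3K4me3 ratios, 3 each for their control signals, 2 each for other ratios, up to 4 by signal for CTCF and H3K27me3), members with H3K27ac or H3K4me3 in 1 library, the stalk proteins, RPSA, RPL3L, members with no mark, and in other lists the 2 highest and 2 lowest H3K27ac ratios and PABPC1. RPL36A, RPL3 and the members given as examples of neighbouring starts or of a count were named after their values were seen. Some genes that the rule names are not reported here. Gene lengths came from RefSeq on ARS-UCD2.0, in which all 78 symbols matched, and no coordinates were taken from it.

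Alternatives were windows of 1 and 5 kb, a stricter interval threshold (peak signal not under the 25% quantile of its library), equal numbers of intervals, added RP-like genes, members sharing intervals counted once, peak signal, the interval covering the start, centring on the median promoter, scaling on the top 10% of promoters, a pseudocount of 1, and folds of 1.5 and 3. Leaving out members with displaced marks or with intervals that do not overlap was chosen after seeing the data. Code was tested on simulated data. Python 3.11.15, numpy 2.4.6, pandas, scipy and matplotlib were used.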

Additional observations from a re-analysis of the deposited data

How the results depend on the processing

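Of 132 alternative values 111 were labelled the same by the spread used, 16 moved and 5 changed sign. The 111 include every value from counting members that share intervals once. Those could not differ, because all 77 members remained. The 111 also include medians over few members that differed in size, such as H3K27me3 at 1 kb (-1.16 against -0.34) and H3K4me1 at 5 kb (-0.19 against -0.62). The 111 therefore overstates how little the results depend on the processing. The median H3K27ac ratio of members (-0.49) was -0.85 from peak signal, and turned to 0.29 when centred on the median promoter and to 0.39 when scaled on the top 10% of promoters. The 9 members at least 2-fold lower in H3K27ac became 27 from peak signal, 3 for intervals covering the start, 1 centred, 0 scaled on the top 10%, 30 at a fold of 1.5 and 1 at a fold of 3, beside 64.7%, 36.5%, 1.61%, 0.788%, 62.9% and 5.26% of all promoters. Members with H3K4me1 in the control (47) were 15 at 1 kb, and after butyrate (5) they were 1 at 1 kb, 22 at 5 kb and 2 at the stricter interval threshold. The H3K4me1 median (-0.62, over 4 members) was -0.96 from peak signal, -0.19 at 5 kb and 0.02 at the stricter threshold. Members with H3K27me3 (13 and 3) were 8 and 1 at 1 kb and 21 and 10 at 5 kb, and its median (-0.34, over 3 members) was -1.16 at 1 kb, where 1 member is left after butyrate, 0.01 centred and 0.66 scaled on the top 10%. The H3K4me3 and CTCF counts and medians and the counts of members marked with H3K27ac were labelled the same under every alternative run for them. That label allows some difference, since members with CTCF in the control (43) were 38 at 1 kb and 53 at 5 kb. Apart from the alternatives that change scale, window, threshold or members by construction, the cause was not tested. No paired analysis was possible because each target had 1 library per condition and the labels carry no replicate numbers, and no replicate could be left out. Without read totals, what depth limits could not be measured.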
